A study of Mus musculus with 6 samples.

Results

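The genes described here are 34 markers of T cells, B cells and NK cells, read in endothelium that had been sorted from tumors to be free of leukocytes. They are every gene of a fixed marker list that has a row in the deposited table, which holds 750 genes. The rule uses no measured value, but the list was drawn up with earlier results of these data known. All 34 were found. The tumor endothelial cells (TECs) came from subcutaneous tumors of B16-F10, a mouse melanoma line, on day 18 after 250000 cells were implanted in C57Blk6 mice. There were 3 ATG5BECKO samples (replicates 2, 3 and 5) and 3 WT samples (replicates 1, 4 and 6). ATG5BECKO mice carry Pdgfb-Cre ERT2, a tamoxifen-inducible Cre driven by the Pdgfb promoter, in blood endothelial cells, together with floxed Atg5 and a Rosa26 tdTomato reporter line, and their WT counterparts are littermates of that cross without Cre. Deletion was induced with tamoxifen on 5 consecutive days. Whether the WT mice also received it is not stated in the sources used here. Mice of both sexes, 7 to 14 weeks old, were used across the study's experiments, and neither the age of the mice behind each sample nor whether a sample was 1 mouse or a pool is given. The p-values thus reflect only how these samples spread, which may be technical. The table has no row for Atg5, and its deletion was not checked here.

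T cells recognise antigen with a receptor whose signal runs through the CD3 chains, the coreceptors CD4 and CD8 and the kinases LCK and ZAP70. NK cells and cytotoxic T cells kill with perforin and granzymes, and B cells are marked by CD20, the product of Ms4a1. All of these cells carry CD45, the product of Ptprc, which endothelium lacks. The sort used this difference. CD45-bearing cells were removed on magnetic beads, CD31-bearing cells were enriched, and live cells without CD45 and with CD31 were then collected, in the study's account also without the erythroid marker Ter119. The 34 genes bear on how much lymphocyte RNA the sorted fraction held. Since the samples are bulk RNA, fewer lymphocytes and less RNA per lymphocyte cannot be told apart.

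The nCounter assay counts barcoded probes bound to each transcript, without amplification. The deposited values are log2 counts after scaling with 1 factor per sample, and every value of every sample was a whole count times that factor. The factor ran from 0.636 in WT replicate 4 to 1.94 in WT replicate 6. Counts given below other than on the log2 scale are whole counts before this scaling, so they do not compare directly between samples. Overlap of groups was judged on the log2 values throughout. Total counts ran from 168454 to 198541 in ATG5BECKO samples and from 76784 to 244561 in WT samples, lowest in WT replicate 6. The 12 endothelial identity genes, among them Flt1 and Pecam1, averaged 10.75 ± 0.16 log2 units over the ATG5BECKO samples and 10.65 ± 0.0077 over the WT samples (SD, n = 3 each), so the labelled cell type carried its defining markers in all samples. Pecam1 encodes CD31, on which the cells were sorted, so its level is not a free readout. No gene had a count of 0 in any sample, and no background had been subtracted. The low end of the table was therefore set from 18 genes taken as restricted to tissues outside tumor vessels and blood. They include the cancer-testis genes Magea1 and Magea3, the stem cell factor Sox2 and the hepatocyte gene Serpina1a. Their silence in the sorted fraction was assumed and not tested. In each sample, the bound was their mean log2 level plus 2 SD, which fell between 4.96 and 5.86 in ATG5BECKO samples and between 4.83 and 5.61 in WT samples. In every sample it lay above the median of all genes. That median ran from 4.90 to 5.38 in ATG5BECKO samples and from 4.30 to 5.41 in WT samples. Below the low end thus means under this bound, not among the lowest genes of the table.

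Most of the lymphocyte markers lay under this bound in both genotypes. Averaged over the list, they stood at 4.05 ± 0.20 log2 units across ATG5BECKO samples and 3.85 ± 0.53 across WT samples (SD, n = 3 each). The tissue-restricted genes stood at 4.01 ± 0.34 across ATG5BECKO samples and 3.84 ± 0.72 across WT samples (SD, n = 3 each). Of the 34 markers, 1 was above the bound in all 6 samples, 6 were above it in some samples and 27 in none, against 33.5% of all 750 genes above it in all samples. The count depends on where the bound is set. It was 18 of 34 with the upper end of the lowest 10% of the table as the bound, against 76.1% of all genes, 2 with the highest tissue-restricted gene, against 39.6%, and 0 with the mean plus 3 SD, against 24.9%. The median count over all markers and samples was 16, and that of the tissue-restricted genes was 15. By mean log2 count, 28 of the markers ranked below the table's median of 5.11, and the median rank of the 34 was 21.1% from the bottom. The study's own low-signal filter kept 6 of the 34, Lck, Cd28, Icos, Tbx21, Ncr1 and Ms4a1, and 50.5% of all genes. Together the 34 markers took from 0.284% to 0.499% of the counts of an ATG5BECKO sample and from 0.244% to 0.582% of a WT sample. The Wilson 95% intervals of these shares, which cover counting error only, ran from 0.261% to 0.533% at their outer ends in ATG5BECKO samples and from 0.225% to 0.638% in WT samples. The 18 tissue-restricted genes took from 0.121% to 0.245% of an ATG5BECKO sample and from 0.113% to 0.290% of a WT sample. With no background subtracted, the share of the markers does not measure lymphocyte RNA alone. Probes differ in how well they capture their transcript, so levels of different genes are compared only with the low end.

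**Figure D1:**
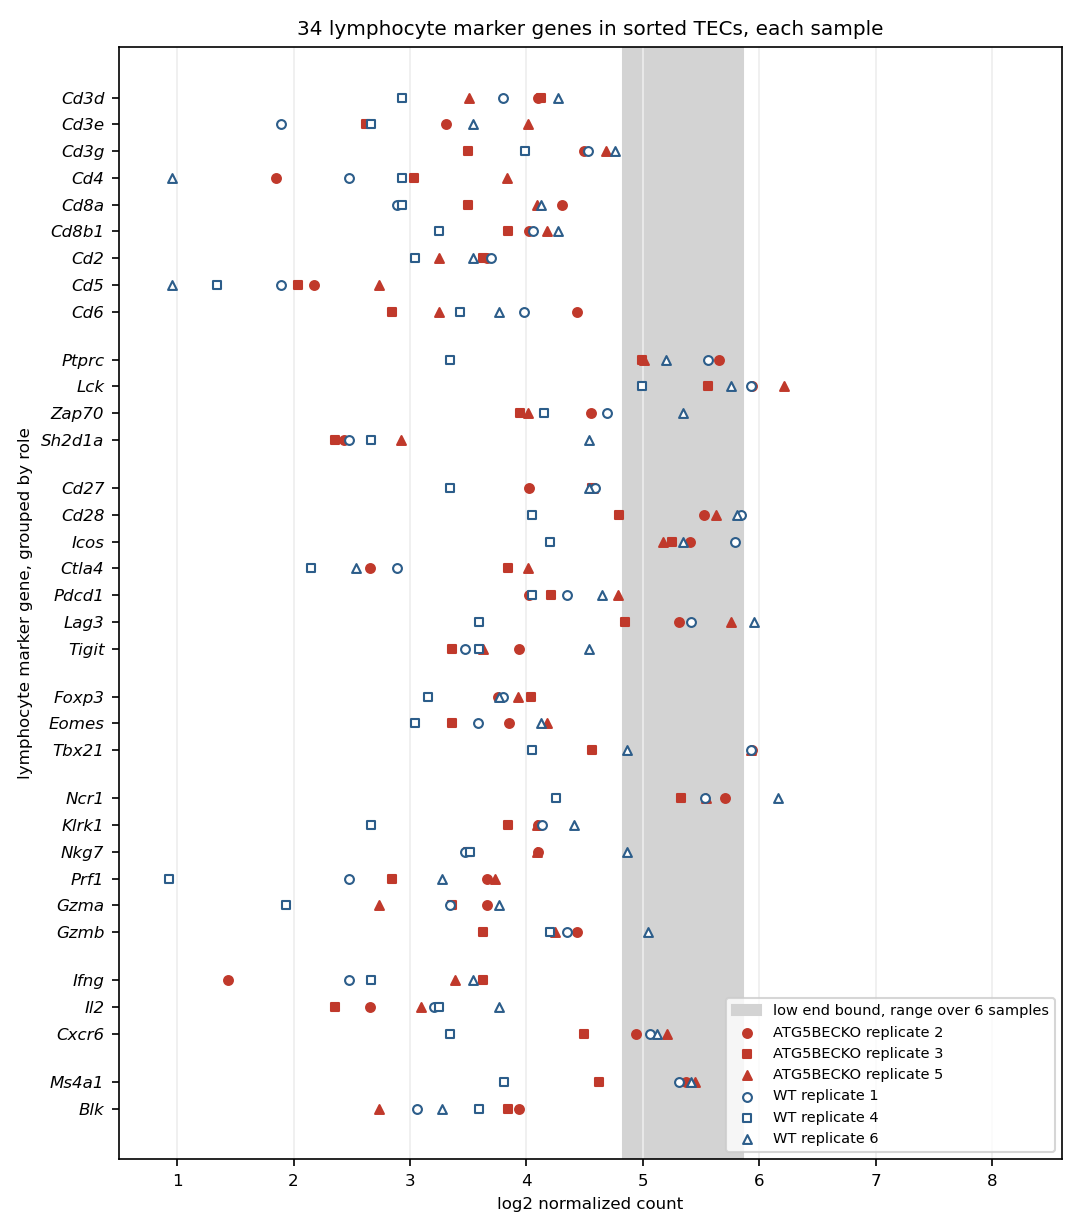
Log2 normalized count (x axis) of each of the 34 lymphocyte marker genes (y axis, grouped by role), with a point for each ATG5BECKO sample (filled) and each WT sample (open). The grey band spans the low-end bounds of the 6 samples, from 4.83 to 5.86, and nearly all points lie in it or to its left.

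**Figure D2:**
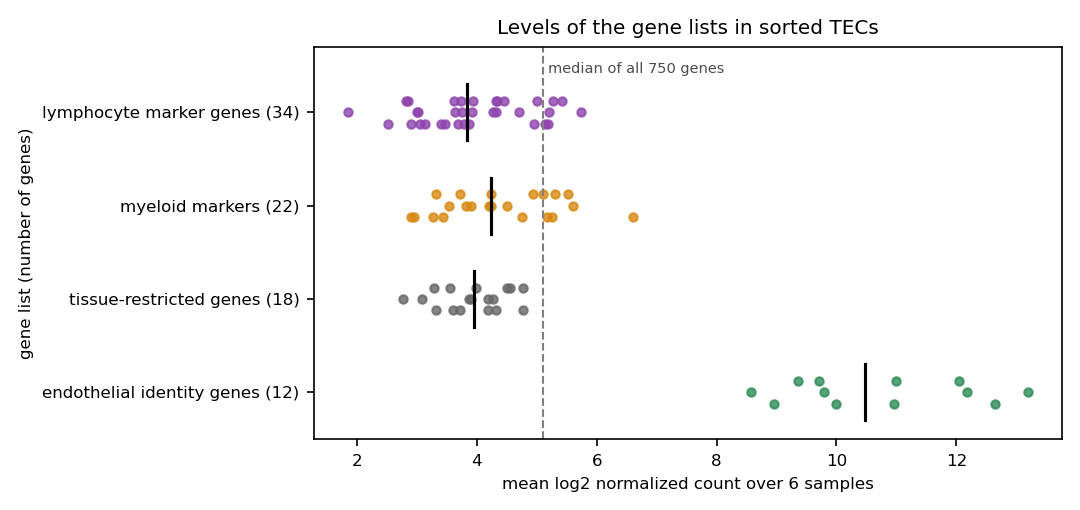
Mean log2 normalized count over the 6 samples (x axis) of each gene of 4 lists (y axis), with a black bar at each list's median and a dashed line at the median of all 750 genes, 5.11. The lymphocyte markers have a median of 3.83 and the tissue-restricted genes 3.95, while the endothelial identity genes start at 8.57.

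The T cell receptor chains and coreceptors stayed below the low-end bound throughout. The 9 genes, Cd3d, Cd3e, Cd3g, Cd4, Cd8a, Cd8b1, Cd2, Cd5 and Cd6, had between 1 and 27 counts in every sample, with a median of 12, and none of them passed this bound in any sample. With the upper end of the lowest 10% of the table as the bound instead, Cd3g and Cd8b1 were above it in all 6 samples. Cd3e, which encodes the ε chain of the CD3 complex, had 11, 6 and 17 counts in ATG5BECKO replicates 2, 3 and 5, against 4, 10 and 6 counts in WT replicates 1, 4 and 6. Cd3d, the δ chain, had 19, 17 and 12 counts in ATG5BECKO samples and 15, 12 and 10 in WT samples. Cd3g, the γ chain, had 25, 11 and 27 counts in ATG5BECKO samples and 25, 25 and 14 in WT samples. The groups overlapped for all 3 chains, and a tissue-restricted gene had on average 22.3, 13.3 and 22.9 counts in the same ATG5BECKO samples and 19.3, 15.4 and 12.4 in the WT samples. The chains belong to 1 complex, but their log2 levels were only weakly related over the 6 samples, with Pearson's r of 0.12 for Cd3d with Cd3e, 0.14 for Cd3d with Cd3g and 0.45 for Cd3e with Cd3g. With each sample centred on the tissue-restricted genes, the same r were -0.36, -0.53 and 0.11. The r on deposited values share the normalization factor of each sample, and all are a description only.

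The CD8 coreceptor is built from the chains of Cd8a and Cd8b1, and Cd4 encodes the coreceptor of helper T cells. Cd8a had 22, 11 and 18 counts in ATG5BECKO samples and 8, 12 and 9 in WT samples, and its groups overlapped on the log2 scale. Cd8b1 had 18, 14 and 19 counts in ATG5BECKO samples and 18, 15 and 10 in WT samples. Cd4 had 4, 8 and 15 counts in ATG5BECKO samples and 6, 12 and 1 in WT samples. At such counts the precision is low. The spread that counting alone gives on the log2 scale was 0.77 for Cd4, 0.42 for Cd8a and 0.37 for Cd8b1, while the spread within groups was 1.02, 0.58 and 0.40. Cd2, an adhesion receptor of T and NK cells, had between 6 and 14 counts over all samples, and Cd6, a scavenger receptor family protein of T cells, between 7 and 24.

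Lck, the Src family kinase that starts T cell receptor signaling, was the marker above the low end in every sample. Its log2 level was 5.94, 5.56 and 6.21 in ATG5BECKO samples and 5.93, 4.99 and 5.76 in WT samples, from 68, 46 and 78 counts and from 66, 50 and 28 counts. The groups overlapped, and WT replicate 4 was the lowest sample. The log2 fold change, ATG5BECKO minus WT, was 0.34 (standard error 0.34, 95% interval -0.39 to 1.08), with adjusted p = 0.909 from limma over all 750 genes. Without WT replicate 4 it was 0.057, and without WT replicate 1 it was 0.53. Lck lay within 1 log2 unit of the low-end bound in each sample.

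The other genes of this role group were not above the low end throughout. Ptprc, whose protein CD45 was the basis of the sort and so is not a free readout here, measured 5.66, 4.99 and 5.01 log2 units in ATG5BECKO samples and 5.56, 3.35 and 5.20 in WT samples. It was above the low end in 2 of 6 samples, ATG5BECKO replicates 2 and 3, and its lowest value, from 16 counts, was in WT replicate 4. Its log2 fold change was 0.52 (standard error 0.54, 95% interval -0.65 to 1.69, adjusted p = 0.929 from limma), and without WT replicate 4 it was -0.16. Zap70, the kinase recruited to the phosphorylated CD3 chains, had 26, 15 and 17 counts in ATG5BECKO samples and 28, 28 and 21 in WT samples, and its log2 fold change was -0.56 (standard error 0.45, adjusted p = 0.850 from limma). Sh2d1a, which encodes the adaptor SAP, had 12 counts or fewer in every sample.

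Costimulatory and inhibitory receptors tune T cell activation, and the inhibitory ones are the targets of checkpoint antibodies. Cd28, the main costimulatory receptor, measured 5.52, 4.79 and 5.63 log2 units in ATG5BECKO samples and 5.84, 4.05 and 5.81 in WT samples, so its highest and its lowest values both fell in the WT group. Its log2 fold change was 0.080 (standard error 0.49, 95% interval -0.98 to 1.14, adjusted p = 0.991 from limma), and without WT replicate 4 it was -0.51. Icos, a costimulatory receptor of activated T cells, had 47, 37 and 38 counts in ATG5BECKO samples and 60, 29 and 21 in WT samples. Lag3, an inhibitory receptor that binds MHC class II, had 44, 28 and 57 counts in ATG5BECKO samples and 46, 19 and 32 in WT samples. Cd28 was above the low end in 2 samples, both WT, Icos in 1 sample of each group and Lag3 in 1 WT sample, with overlapping groups for each of them. The remaining receptors never passed the bound. Pdcd1, which encodes PD-1, had 18, 18 and 29 counts in ATG5BECKO samples and 22, 26 and 13 in WT samples, for a log2 fold change of -0.012 (standard error 0.43). Tigit ranged from 10 to 19 counts and Cd27 from 12 to 26. Ctla4, an inhibitory receptor of activated and regulatory T cells, had 7, 14 and 17 counts in ATG5BECKO samples and 8, 7 and 3 in WT samples, for a log2 fold change of 0.98 (standard error 0.55, 95% interval -0.23 to 2.19, adjusted p = 0.685 from limma).

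Of the lineage transcription factors, Foxp3, which defines regulatory T cells, had little spread, with 15, 16 and 16 counts in ATG5BECKO samples and 15, 14 and 7 in WT samples. Eomes, a factor of cytotoxic T and NK cells, had between 9 and 19 counts. Tbx21, which encodes T-bet, the factor of type 1 helper and cytotoxic cells, was uneven, with 68, 23 and 64 counts in ATG5BECKO samples and 66, 26 and 15 in WT samples. It was above the low end in 3 of 6 samples, which came from both groups, and its log2 fold change was 0.53 (standard error 0.52, adjusted p = 0.909 from limma).

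Among the cytotoxic and NK cell genes, Ncr1, which encodes the NK cell receptor NKp46, was the one that reached above the low end. Its log2 level was 5.71, 5.32 and 5.54 in ATG5BECKO samples and 5.53, 4.25 and 6.16 in WT samples, and the WT samples held both extremes. It was above the low end in 3 of 6 samples, and its log2 fold change was 0.21 (standard error 0.44, 95% interval -0.76 to 1.18, adjusted p = 0.991 from limma). Without WT replicate 4 it was -0.32, and without WT replicate 6 it was 0.63. The granule genes stayed below it in all samples. Prf1, which encodes perforin, had 14, 7 and 14 counts in ATG5BECKO samples and 6, 3 and 5 in WT samples. Its log2 fold change of 1.19 (standard error 0.65, 95% interval -0.24 to 2.61) was the largest of the 34 and had adjusted p = 0.660 from limma. Without WT replicate 4 it was 0.54, and without WT replicate 6 it was 1.71. The groups overlapped on the log2 scale, though not in counts, with ATG5BECKO replicate 3 at 2.85 and WT replicate 6 at 3.27. Gzmb, granzyme B, had 24, 12 and 20 counts in ATG5BECKO samples and 22, 29 and 17 in WT samples. Gzma, granzyme A, had between 6 and 14 counts, Nkg7, a granule membrane protein, between 11 and 19, and Klrk1, which encodes the receptor NKG2D, between 10 and 19. None of these 5 genes passed the low-end bound in any sample.

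Ifng and Il2 encode cytokines that activated lymphocytes secrete. Ifng, interferon gamma, had 3, 12 and 11 counts in ATG5BECKO samples and 6, 10 and 6 in WT samples. For Il2, the T cell growth factor, there were 7, 5 and 9 counts in ATG5BECKO samples and 10, 15 and 7 in WT samples. Cxcr6, a chemokine receptor of tissue-resident T cells, had 34, 22 and 39 counts in ATG5BECKO samples and 36, 16 and 18 in WT samples. Its log2 level was 4.94, 4.50 and 5.21 in ATG5BECKO samples and 5.06, 3.35 and 5.12 in WT samples, with overlapping groups. Of the B cell genes, Ms4a1 had 46, 24 and 46 counts in ATG5BECKO samples and 43, 22 and 22 in WT samples. The 22 counts were 3.81 log2 units in WT replicate 4 and 5.41 in WT replicate 6. Blk, a Src family kinase of B cells, had between 5 and 19 counts. All 5 genes stayed under the low-end bound in all 6 samples, and Ms4a1 came nearest to it.

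Several markers lie side by side in the mouse genome (RefSeq gene order, assembly GRCm38.p6). No protein-coding gene lies between Cd28 and Ctla4 or between Ctla4 and Icos. Cd28 and Icos were above the bound in 2 samples each, and Ctla4 in 0. Lag3 was above it in 1 sample and its neighbour Cd4 in 0. The neighbours Cd5 and Cd6, the 3 CD3 genes and both CD8 genes were under it in all samples.

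The comparison of genotypes asks whether loss of Atg5 in blood endothelium went with a change in lymphocyte transcripts in the sorted fraction. None of the 34 markers passed the test in either direction. With limma on all 750 genes, 0 markers were called at an adjusted p under 0.05 in either direction, against 0.8% of all genes higher and 0% lower. An unadjusted p under 0.05 was reached by 0 markers, against 9.6% of all genes (9.07% higher and 0.533% lower). With voom on the recovered counts both numbers were also 0, and 23 of all 750 genes were called after adjustment. At the study's thresholds, where the log2 fold change is 0.7 or more in size and the unadjusted p under 0.05, 0 markers were higher and 0 lower, against 6.93% and 0.533% of all genes. The smallest unadjusted p among the markers was 0.0942, for Prf1, and adjusted p ran from 0.660 to 0.995. The log2 fold changes ran from -0.70 to 1.19, with a median of 0.22, where the median of all genes was 0.17. They were positive for 24 markers and negative for 10, against 66.9% and 33.1% of all genes. The direction of the median rested on WT replicate 4, for without it the median was -0.19 and 10 of 34 were positive, with a median of -0.056 and 44.3% positive over all genes. Without WT replicate 6 the median of the markers was 0.42, and without WT replicate 1 it was 0.35.

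The intervals were wide. All 34 of the 95% intervals held 0, and the median interval reached 1.11 log2 units to either side. Groups without overlap were seen for 1 marker above and 1 below, against 13.7% and 1.6% of all genes. The marker above was Cd5, a scavenger receptor family protein of T cells, with the lowest mean level of the 34. It measured 2.17, 2.04 and 2.73 log2 units in ATG5BECKO samples and 1.89, 1.35 and 0.95 in WT samples. These values came from 5, 4 and 7 counts and from 4, 4 and 1 counts. The marker below was Il2, at 2.66, 2.36 and 3.09 log2 units in ATG5BECKO samples and 3.21, 3.25 and 3.76 in WT samples. Both were singled out after their values were seen. Their log2 fold changes were 0.92 (standard error 0.55) and -0.70 (standard error 0.50), with adjusted p = 0.707 and 0.821 from limma. The exact two-sided permutation p was 0.1 for each, the smallest that 3 against 3 samples allow.

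**Figure D3:**
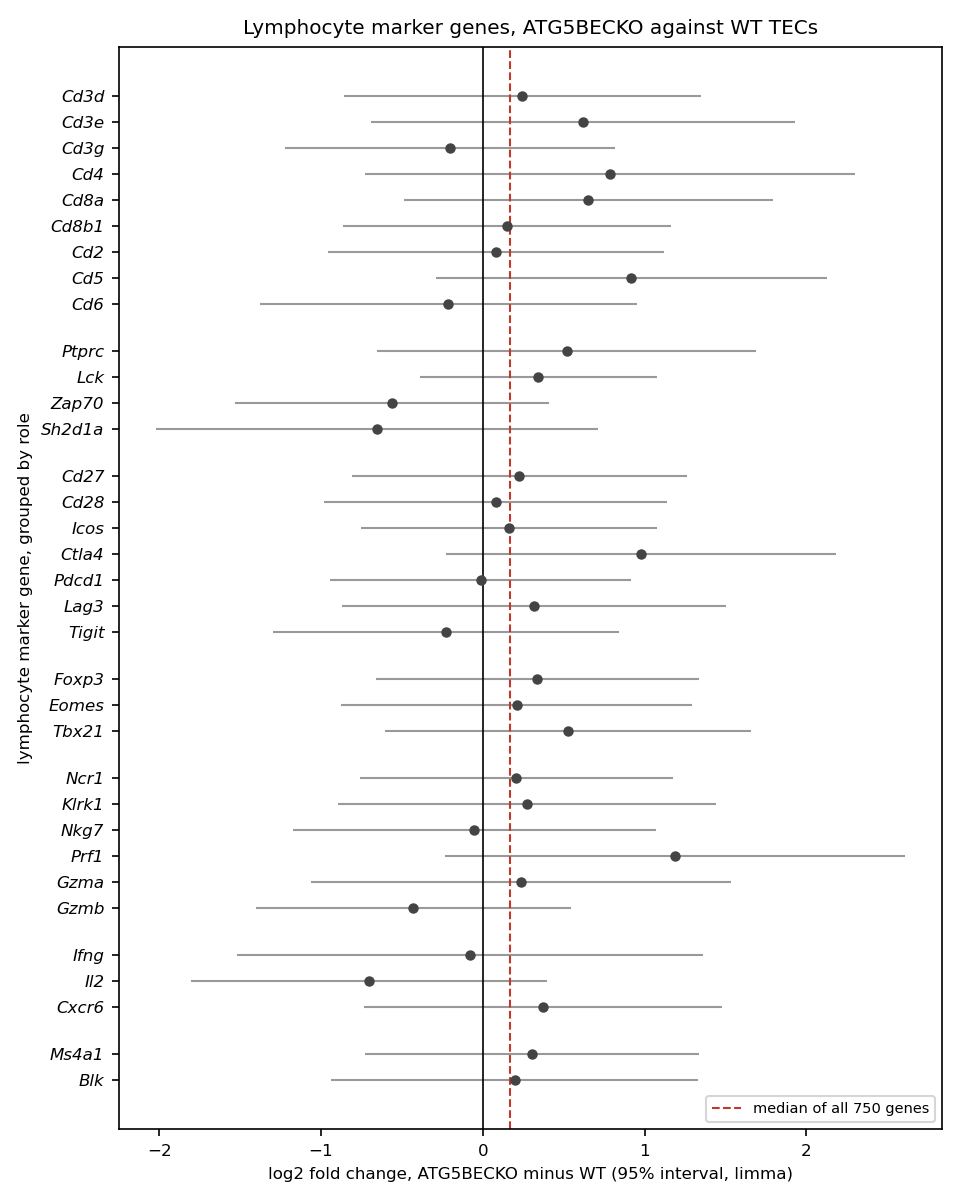
Log2 fold change (x axis, ATG5BECKO minus WT) of each lymphocyte marker gene (y axis, grouped by role) with its 95% interval from limma. The solid line marks 0 and the dashed line the median of all 750 genes, 0.17, and all 34 intervals cross 0.

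Across samples, the mean of the markers moved with the low end and with the table as a whole. The mean log2 level of the 34 markers was 4.10, 3.83 and 4.22 in ATG5BECKO replicates 2, 3 and 5, and 4.00, 3.27 and 4.29 in WT replicates 1, 4 and 6. That of the 18 tissue-restricted genes was 4.17, 3.62 and 4.24 in the ATG5BECKO samples and 3.94, 3.08 and 4.50 in the WT samples. Both lists put the 6 samples in the same order, with WT replicate 4 lowest and WT replicate 6 highest. The mean of all genes gave that order too. It was 5.71, 5.55 and 5.75 in the ATG5BECKO samples and 5.56, 5.03 and 5.83 in the WT samples. The order is thus not particular to the low end. Over the 6 samples Pearson's r between the means was 0.98 and Spearman's rho 1, and without WT replicates 4 and 6, which lay farthest from the median, r was 0.98. The means share each sample's normalization factor and depth. For the mean of the markers, r was -0.70 with the log2 total count (rho -0.94) and 0.73 with the log2 scaling factor (rho 0.6). Without WT replicates 4 and 6 these r were -0.72 and -0.66, so the sign for the scaling factor rested on those samples. With the mean of the endothelial identity genes, r was -0.12 (rho -0.086). Single markers followed the same order less closely. Their r with the mean of the tissue-restricted genes was above 0 for 32 of 34, with a median of 0.70, from -0.45 for Cd4 to 0.97 for Lag3.

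**Figure D4:**
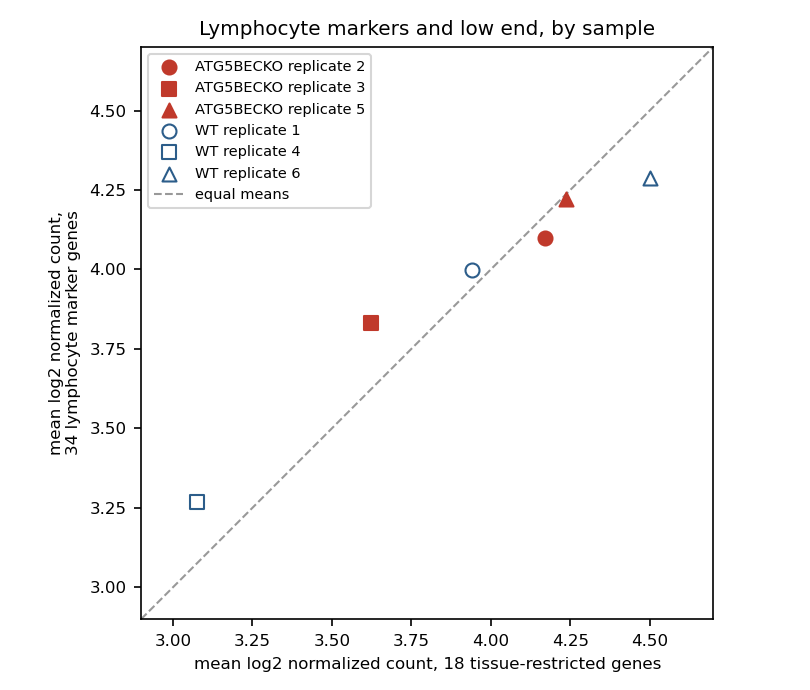
Mean log2 normalized count of the 34 lymphocyte markers (y axis) against that of the 18 tissue-restricted genes (x axis), with a point for each ATG5BECKO sample (filled) and each WT sample (open) and a dashed line of equal means. The points run along the line, from WT replicate 4 at 3.08 and 3.27 to WT replicate 6 at 4.50 and 4.29. The mean of all genes puts the samples in the same order.

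Relative to the low end, the samples stood close together. The mean of the markers minus that of the tissue-restricted genes was -0.073, 0.21 and -0.014 log2 units in ATG5BECKO samples and 0.056, 0.19 and -0.21 in WT samples. The groups overlapped, and the difference between their means, 0.20 on the deposited values, was 0.029 on this scale. Over the 561 pairs of markers, the median Pearson's r across samples was 0.45 on the deposited values, beside 0.31 over all pairs of genes and 0.53 between a marker and a tissue-restricted gene. After each sample was centred on the tissue-restricted genes, the median r between markers was 0.074, with 303 pairs above 0 and 258 below, beside 0.24 over all pairs of genes. Over the markers, the median log2 spread that counting error alone gives was 0.39, while the median spread within groups was 0.58.

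Other gene lists were set beside the 34 markers. Of 43 further lymphocyte genes on the panel, 1 was above the low end in all 6 samples, against 33.5% of all genes. An unadjusted p under 0.05 with limma was reached by 0 of them, against 9.6% of all genes. The gene above the low end was Il2rg, which encodes the common γ chain of interleukin receptors, at 8.41 ± 0.14 log2 units across ATG5BECKO samples and 8.03 ± 0.15 across WT samples (SD, n = 3 each). Its log2 fold change was 0.37 (standard error 0.19, adjusted p = 0.565 from limma). The ATG5BECKO values lay above the WT values without overlap, as for 13.7% of all genes. Of 22 myeloid markers, 1 was above the low end in all 6 samples. It was Csf1r, the receptor of macrophage colony-stimulating factor, at 6.58 ± 0.19 log2 units across ATG5BECKO samples and 6.62 ± 0.65 across WT samples (SD, n = 3 each). Cd14, the lipopolysaccharide coreceptor of monocytes and macrophages, was the 1 myeloid marker with an unadjusted p under 0.05 with limma, against 9.6% of all genes. Of the 22 myeloid log2 fold changes, 13 were positive and 9 negative. Cd14 was singled out after its values were seen. It stood at 6.01 ± 0.38 log2 units across ATG5BECKO samples and 5.04 ± 0.34 across WT samples (SD, n = 3 each), without overlap. The difference of 0.97 (standard error 0.33, adjusted p = 0.245 from limma) is past the study's thresholds, as for 6.93% of all genes in the higher direction. The mean of the myeloid list minus that of the tissue-restricted genes was 0.33, 0.69 and 0.37 in ATG5BECKO samples and 0.46, 0.38 and 0.49 in WT samples, in each sample above the value of the lymphocyte markers. Summed over the myeloid list there were 554 to 733 counts per ATG5BECKO sample and 439 to 643 per WT sample. The list's mean log2 level put the samples in the order of the low end and of all genes. Of 7 fibroblast and mural markers, 3 were above the low end in at least 4 samples, Thy1, Col6a3 and Olfml2b. These 3 were lower in ATG5BECKO samples at an unadjusted p under 0.05 with limma, as were 0.533% of all genes. After adjustment 0 of the list were called. Over the list, 5 log2 fold changes were negative and 2 positive, Fap at 0.17 and Cdh11 at 0.32. Summed over that list there were 187 to 317 counts per ATG5BECKO sample and 155 to 937 per WT sample. The mean of 2 melanocyte markers, Mlana and Sox10, was also set against that of the tissue-restricted genes. It lay 0.39, 0.058 and 0.29 log2 units above in ATG5BECKO samples and 1.22, 1.04 and 0.20 above in WT samples. The part of myeloid, fibroblast or melanoma RNA in the counts of the lymphocyte markers or the tissue-restricted genes was not tested.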

How the data were processed

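NanoString nCounter counts of 6 samples of sorted TECs were used, 3 ATG5BECKO and 3 WT, grouped by the sample labels. RNA (10 ng) had been run on the PanCancer Mouse Immune Profiling panel, per the study's methods. The authors scaled the counts in nSolver 4.0 and deposited them on the log2 scale. The values show 1 factor per sample, from housekeeping genes that nSolver selected with geNorm, per the study's source data. In that source data, 1 sheet heads the sample columns as WT and KO in an order that goes against the sample labels, while another matches them, and the labels were followed. Whole counts were recovered from the steps of the values, which came out whole for 100% of values in each sample within a tolerance of 0.01. All 750 genes were fitted with limma 3.58.1 in R 4.3.3 (lmFit, eBayes with an intensity trend) and Benjamini-Hochberg adjustment. The fit was not limited to the 379 genes that nSolver kept, since these hold 6 of the 34 markers. Other steps used Python 3.11.15, scipy 1.17.1 and matplotlib 3.10.9. The fit was also run on simulated data with changes larger than those of the markers and no shift shared by the genes of a sample. That run does not cover changes of the size reported here.

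The members and gene lists were chosen with earlier results of these data known. Values in every sample were planned for markers above the low end in all samples, for markers past a threshold, for the 3 highest markers and for Ptprc, and the other markers shown so were chosen after their values were seen. The highest genes of the other lists were also named. Alternatives were the genes nSolver kept, genes averaging 5 log2 units or more, quantile normalization, median centring, scaling to tissue-restricted or endothelial genes, limma without trend or robust, a pseudocount of 10, voom on recovered counts, the methods' t-test, other low-end bounds, Spearman in place of Pearson, and fits without each sample in turn.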

Additional observations from a re-analysis of the deposited data

How the results depend on the processing

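In all 17 alternatives to the fit, 0 markers were called at an adjusted p under 0.05, where the nSolver and mean level filters tested 6 of the 34. Few of all genes were called in these alternatives. Their number ran from 0, as with quantile normalization and the methods' t-test, to 26 of 750 without WT replicate 6. The methods' t-test gave 0 at the study's thresholds and 0 after Benjamini-Hochberg adjustment. At the study's thresholds, 1 marker was lower after median centring and 1 after scaling to the tissue-restricted genes (Zap70 in both). With quantile normalization 1 was higher (Prf1) and 2 were lower (Il2 and Zap70), and with limma without trend 1 was higher (Cd5). When samples were left out, 0 to 2 were higher and 0 to 1 lower, with Cd8a and Prf1 higher without WT replicate 6, Ctla4 higher without ATG5BECKO replicate 2 and Zap70 lower without WT replicate 4. The share of all genes at these thresholds was counted for the main fit only, 6.93% higher and 0.533% lower. The median log2 fold change of the markers was 0.22, and ran from -0.19 (without WT replicate 4) to 0.42 (without WT replicate 6) when samples were left out. Over the other alternatives it ran from 0.0058 (median centring) to 0.32 (voom). The difference of the group means, 0.20, ran from -0.012 to 0.27 over the scalings, filter and pseudocount and from -0.092 to 0.42 without a sample. The log2 fold change of Cd28, 0.080, turned to -0.13 after median centring, -0.18 after quantile normalization, -0.016 with endothelial scaling and -0.090 with tissue-restricted scaling, and ran from -0.51 (without WT replicate 4) to 0.38 without a sample. That of Ncr1, 0.21, turned to -0.0034 with median centring and -0.074 with quantile normalization, and ran from -0.32 (without WT replicate 4) to 0.63 without a sample. That of Ptprc, 0.52, ran from -0.16 (without WT replicate 4) to 0.95 without a sample. Lck, Cd5, Il2, Prf1, Ctla4 and Zap70 kept their direction in each alternative that fitted them, and without a sample Lck ran from 0.057 to 0.53 and Prf1 from 0.54 to 1.71. Above the low end in all samples were 18 markers with the bound at the upper end of the lowest 10% of the table, 2 (Lck and Ncr1) with the highest tissue-restricted gene as the bound and 0 with 3 SD. The median r between markers, 0.45, was 0.31 with Spearman, -0.063 after median centring and 0.074 after centring on the tissue-restricted genes, and ran from 0.17 to 0.51 without a sample, lowest without WT replicate 4. The cause of these shifts was not tested. No paired analysis was possible because the labels number the samples consecutively over both groups and give no pairing. At 1 to 78 counts, a single marker has little depth, least in WT replicate 6.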
